A study of Schizosaccharomyces pombe with 8 samples.

Results

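The 56 genes described here are those whose standard fission yeast name is rpn, rpt, pre, pup, ubc or ubp followed by a number, out of 5165 genes in the expression table. The rule uses the name alone, though the members were chosen with earlier results of these data known. By their names, they fall into 30 subunits of the 26S proteasome, 11 conjugating enzymes and 15 deubiquitinases. The proteasome subunits divide into 6 ATPases of the base (rpt1 to rpt6), 4 other base subunits (rpn2, rpn10, rpn1301 and rpn1302), 9 lid subunits and 11 subunits of the 20S core. A further 5 genes carry such a name only as a synonym (mts4 for rpn1, dss1 for rpn15, rhp6 for ubc2, hus5 for ubc9 and pan2 for ubp13) and are outside the rule, as are the core subunit genes scl1, pts1 and pam1.

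Proteins are marked for destruction by chains of ubiquitin, a small protein. An activating enzyme loads ubiquitin, a conjugating enzyme carries it, a ligase hands it to the substrate, and deubiquitinases take it off again. The 26S proteasome reads the chain in its 19S regulatory particle, whose lid removes the ubiquitin and whose base holds an ATPase ring that unfolds the protein and threads it into the 20S core, a stack of alpha and beta rings with the proteolytic sites inside.

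RNA was measured in 4 groups of 2 libraries each of the fission yeast Schizosaccharomyces pombe: a pgr1 deletion mutant after 30 min in 1 mM hydrogen peroxide (H2O2), wild type (strain 972) given the same treatment, the mutant without treatment and wild type without treatment. The gene pgr1 encodes glutathione reductase, which uses NADPH to return oxidised glutathione to its reduced form. All groups grew in the rich medium YE5S at 30 °C to an OD600 of 0.5, and the mutant was 1 strain. The comparisons ask how each strain responds to peroxide, how the mutant differs from wild type with and without it, and whether the strains' responses differ.

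Between 12026222 and 14125543 reads per library could be recovered from the deposited normalized counts. Summed over all genes, normalized counts came to 14931323 and 14902233 in treated mutant cells, 13905307 and 14222035 in treated wild type, 12032142 and 11840978 in untreated mutant cells, and 10969093 and 11103005 in untreated wild type. The sums differed between groups, with treated libraries above untreated ones. Values after quantile normalization, which gives all libraries the same distribution, stand beside some of the results that it moves. Values of most single genes are given without it. The pgr1 transcript was low in the 4 mutant libraries, with normalized counts of 92.9 and 105.0 in treated mutant cells against 7201.1 and 6792.4 in treated wild type, and 159.1 and 91.4 in untreated mutant cells against 4939.4 and 4805.1 in untreated wild type. Of the genes listed for nitrogen starvation and sexual development, another state of these cells, 15 of 17 could be tested. With H2O2, 5 of them rose and 8 fell in the mutant, where 35.7% of all genes tested rose and 32.5% fell, and 5 rose and 9 fell in wild type, where 37.7% rose and 34.6% fell. In the mutant against wild type 5 were higher and 1 lower after H2O2, where 26.5% of all genes were higher and 22.4% lower, and 6 were higher and 0 lower without it, where 22.8% were higher and 15.8% lower. Their summed normalized counts were 12088 and 12620 in treated mutant cells, 10713 and 10930 in treated wild type, 8593 and 9179 in untreated mutant cells, and 4570 and 5534 in untreated wild type, with mfm1 and mei3 below 10 in every library. The sums were higher in treated cells although more of these genes fell than rose with H2O2. The gene isp6 rose by 0.82 ± 0.10 in the mutant and 2.34 ± 0.10 in wild type. In contrast, ste11 was at -1.77 ± 0.26 in the mutant and -3.02 ± 0.26 in wild type. The list, its counts and its sums also hold inv1, an invertase gene that does not mark this state. It rose by 2.63 ± 0.27 in the mutant and 5.60 ± 0.27 in wild type. The part of the listed genes in the results below was not tested.

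Peroxide raised nearly all proteasome transcripts in both strains. In RNA from whole cultures, fewer cells with a transcript and less of it per cell cannot be told apart. Values attached to genes are log2 fold changes ± SE, fitted with limma to log2(normalized count + 1) with n = 2 libraries per group, and a gene rose or fell where its Benjamini-Hochberg (BH) adjusted p over all 5028 genes tested was below 0.05. All 56 genes were tested. In the mutant, 44 of the 56 rose and 3 fell, where 35.7% of all genes tested rose and 32.5% fell. In wild type, 47 rose and 4 fell, where 37.7% of all genes rose and 34.6% fell. Among the 30 proteasome subunits, 30 rose in the mutant and 29 in wild type, and none fell in either strain. The median of these 30 was 0.90 in the mutant and 0.81 in wild type, against medians over all genes of 0.01 and -0.00. Under quantile normalization the medians were 0.50 in the mutant, with 29 subunits higher, and 0.37 in wild type, with 26 higher. There rpt1, rpn9 and pup2 no longer passed in wild type. The core median went from 0.99 to 0.57 in the mutant and from 0.81 to 0.38 in wild type. For the lid it went from 0.83 to 0.40 in the mutant and from 0.89 to 0.44 in wild type. For the base ATPases it went from 0.86 to 0.48 in the mutant and from 0.77 to 0.31 in wild type.

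The summed transcripts of the 30 subunits made up 1.41% and 1.46% of the normalized counts in the treated mutant, 1.22% and 1.18% in treated wild type, 0.922% and 0.979% in untreated mutant cells, and 0.837% and 0.841% in untreated wild type. No value of any of these groups overlapped another's, and the share was highest in the treated mutant. The heat map of all 56 genes by library shows the same order for most 20S subunits, and a mixed picture among the deubiquitinases.

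**Figure D1:**
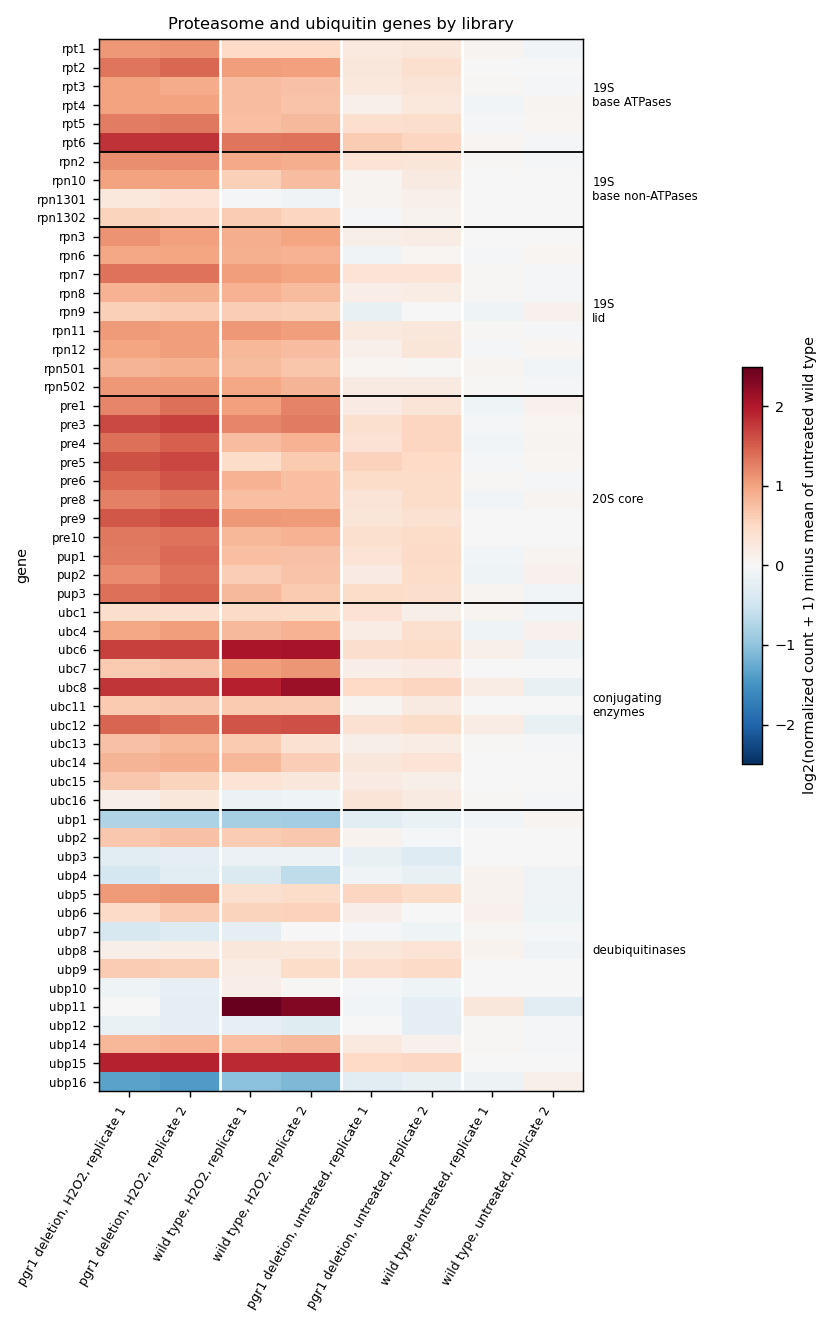
Each row is 1 of the 56 genes and each column 1 of the 8 libraries; the colour is log2(normalized count + 1) minus the gene's mean in untreated wild type, and black lines separate the classes. The treated libraries are red for nearly all proteasome subunits, ubp11 is dark red in the 2 treated wild-type libraries alone, and ubp16 and ubp1 are blue after H2O2 in both strains.

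Deletion of pgr1 was accompanied by higher transcripts of most proteasome subunits with and without peroxide. For the lid after H2O2, the count of higher genes lay near the share of all genes. After H2O2, 26 of the 56 genes were higher in the mutant and 6 lower, where 26.5% of all genes were higher and 22.4% lower. Without H2O2, 30 were higher and 2 lower, where 22.8% of all genes were higher and 15.8% lower. Of the 30 proteasome subunits 21 were higher in the mutant after H2O2 and 20 without it, with medians of 0.35 and 0.31, and none was lower. By class, the medians were 0.61 for the 20S core, 0.41 for the base ATPases, 0.28 for the other base subunits and 0.13 for the lid after H2O2, and 0.43, 0.32, 0.12 and 0.18 for the same classes in untreated cells, a description with no test between classes. The responses of the strains to H2O2 differed by the test of the difference for 2 genes with a larger and 8 with a smaller log2 change in the mutant. Of all genes, 12.0% and 15.3% differed in these directions. The 8 lie near the share of all genes, and the 2 below it. Each comparison with wild type shares libraries with the H2O2 comparisons, so they are not independent of each other.

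**Figure D2:**
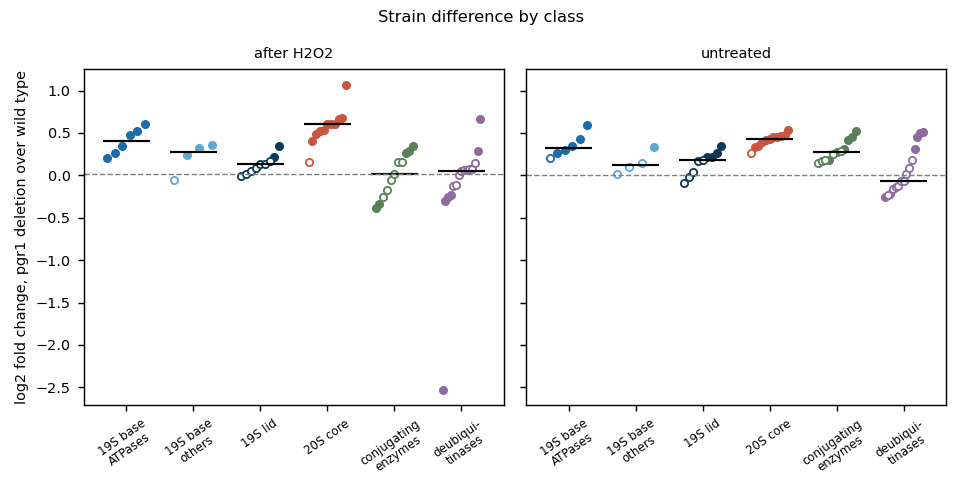
Each point is the log2 fold change of 1 gene, pgr1 deletion over wild type, after H2O2 (left) and untreated (right); filled points passed the test, bars are class medians and the dashed line is the median of all genes tested. The 20S core stands at a median of 0.61 after H2O2 and 0.43 untreated, the lid at 0.13 and 0.18, and ubp11 lies alone at -2.53 after H2O2.

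The 6 ATPases of the base form the ring that unfolds substrates. All 6 rose with H2O2 in each strain, by 0.67 (rpt3) to 1.23 (rpt6) in the mutant and by 0.50 (rpt1) to 1.34 (rpt6) in wild type. Over all genes, 35.7% rose in the mutant and 37.7% in wild type. The rpt6 transcript had 12515.7 and 12577.6 normalized counts in the treated mutant, 9010.6 and 9093.4 in treated wild type, 5516.0 and 5214.9 in untreated mutant cells, and 3687.5 and 3457.8 in untreated wild type. Its groups did not overlap, and it was higher after H2O2 in both strains and higher in the mutant in both conditions. The response was 1.23 ± 0.07 in the mutant (limma, BH-adjusted p = 7.55e-07) and 1.34 ± 0.07 in wild type (limma, BH-adjusted p = 1.93e-07), and the difference of -0.12 ± 0.09 did not pass (limma, BH-adjusted p = 0.412). In the mutant against wild type rpt6 was higher by 0.47 ± 0.07 after H2O2 and by 0.59 ± 0.07 untreated, the highest value of its class in untreated cells.

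The ATPase gene rpt1 had 6160.7 and 6378.2 normalized counts in the treated mutant, 4137.1 and 4120.5 in treated wild type, 3474.5 and 3530.8 in untreated mutant cells, and 3052.8 and 2788.6 in untreated wild type. It rose by 0.84 ± 0.07 in the mutant and 0.50 ± 0.07 in wild type. Its difference of 0.34 ± 0.09 passed (limma, BH-adjusted p = 0.0266), but under 7 of 15 alternative settings it did not, namely quantile normalization and leaving out either treated or either untreated mutant library, the second treated or the first untreated wild-type library. For rpt3 the libraries held 7270.6 and 6926.4 normalized counts in the treated mutant, 6255.3 and 6080.1 in treated wild type, 4366.2 and 4582.0 in untreated mutant cells, and 3705.9 and 3583.6 in untreated wild type. The ATPase with the smallest strain difference after H2O2 was this gene, at 0.20 ± 0.06 (limma, BH-adjusted p = 0.0277), a call lost without either treated mutant library, without the second treated wild-type library and under quantile normalization. In untreated cells it was rpt4, at 0.20 ± 0.08, which did not pass (limma, BH-adjusted p = 0.0702). The other ATPases, rpt2 and rpt5, rose by 1.04 ± 0.07 and 0.87 ± 0.06 in the mutant and by 1.03 ± 0.07 and 0.78 ± 0.06 in wild type.

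The base also holds rpn2, a scaffold, and the ubiquitin receptors Rpn10 and Rpn13, the last of which has 2 genes here, rpn1301 and rpn1302. Normalized counts of rpn2 were 12680.8 and 12882.5 in treated mutant cells, 11031.8 and 10594.7 in treated wild type, 7248.3 and 7024.7 in untreated mutant cells, and 5838.6 and 5531.7 in untreated wild type. It rose by 0.84 ± 0.07 in the mutant and 0.93 ± 0.07 in wild type, and was higher in the mutant by 0.24 ± 0.07 after H2O2 (limma, BH-adjusted p = 0.016) and by 0.33 ± 0.07 untreated (limma, BH-adjusted p = 0.00482). The call after H2O2 was lost without either treated mutant library or the second treated wild-type library. The receptor gene rpn10 rose by 0.86 ± 0.08 in the mutant and 0.68 ± 0.08 in wild type.

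The Rpn13 genes had unlike values, with no test between them. The rpn1301 transcript had 1277.4 and 1341.1 normalized counts in the treated mutant, 1040.6 and 1003.0 in treated wild type, 1113.8 and 1166.9 in untreated mutant cells, and 1064.6 and 1063.9 in untreated wild type. It was the 1 subunit of the 30 that did not pass the H2O2 test in wild type, at -0.06 ± 0.07 (limma, BH-adjusted p = 0.458). In the mutant it rose by 0.20 ± 0.07 (limma, BH-adjusted p = 0.0271), a call that was lost without either treated mutant library, without the first untreated mutant library, under quantile normalization and with DESeq2. In contrast, rpn1302 had 2113.5 and 2046.8 normalized counts in the treated mutant, 2216.5 and 2079.7 in treated wild type, 1386.2 and 1524.0 in untreated mutant cells, and 1427.0 and 1441.3 in untreated wild type. It rose by 0.52 ± 0.07 in the mutant and 0.58 ± 0.07 in wild type, and its strain differences of -0.05 ± 0.07 after H2O2 and 0.02 ± 0.07 untreated did not pass. The ratio of rpn1302 to rpn1301 was 1.65 and 1.53 in treated mutant cells, 2.13 and 2.07 in treated wild type, 1.24 and 1.31 in untreated mutant cells, and 1.34 and 1.35 in untreated wild type, and so it was highest in treated wild type. After H2O2 rpn1301 was 0.36 ± 0.07 higher in the mutant (limma, BH-adjusted p = 0.00255), the largest strain difference among the non-ATPase base subunits, while the difference of its responses, 0.26 ± 0.10, did not pass (limma, BH-adjusted p = 0.0805).

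The lid holds Rpn11, the enzyme that cuts the ubiquitin chain off the substrate, and structural subunits. All 9 lid genes rose with H2O2 in both strains, by 0.70 (rpn8) to 1.01 (rpn7) in the mutant and by 0.60 (rpn9) to 1.07 (rpn11) in wild type. Over all genes, 35.7% rose in the mutant and 37.7% in wild type. The rpn11 transcript had 7670.3 and 7520.5 normalized counts in the treated mutant, 7737.6 and 7530.9 in treated wild type, 4287.1 and 4443.7 in untreated mutant cells, and 3701.5 and 3584.5 in untreated wild type. Treated libraries of the strains overlapped, and untreated mutant libraries lay above untreated wild type, by 0.26 ± 0.06 (limma, BH-adjusted p = 0.00956), a call lost without the second untreated library of either strain. Its responses of 0.80 ± 0.06 in the mutant and 1.07 ± 0.06 in wild type differed by -0.27 ± 0.09 (limma, BH-adjusted p = 0.0489). That difference passed under 3 of 15 alternatives. It was lost without any 1 of the 8 libraries, under quantile normalization, without the variance trend, and with edgeR and DESeq2.

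Of the other lid genes, rpn7 was the 1 with the largest strain differences, at 0.34 ± 0.06 after H2O2 (limma, BH-adjusted p = 0.00162) and 0.35 ± 0.06 untreated (limma, BH-adjusted p = 0.00206). Its normalized counts were 7384.3 and 7413.3 in treated mutant cells, 5938.5 and 5724.0 in treated wild type, 3649.8 and 3676.6 in untreated mutant cells, and 2935.5 and 2830.6 in untreated wild type, with no overlap between groups. By contrast rpn9 had 5295.3 and 5433.5 in treated mutant cells, 5325.7 and 5288.9 in treated wild type, 3069.9 and 3486.4 in untreated mutant cells, and 3256.8 and 3748.6 in untreated wild type, so the strains overlapped in each condition. The strain difference after H2O2 passed for rpn7 and rpn12 (0.22 ± 0.08), and 7 of the 9 lid genes, rpn3, rpn501, rpn502, rpn6, rpn8, rpn9 and rpn11, did not pass, with values of -0.01 to 0.17. Of all genes, 26.5% were higher in the mutant after H2O2, so the count for the lid lies near that share. The rpn12 call held under 8 of 16 alternatives. Of the rpn12 exon bases 11.5% lie opposite rbk1, which was higher in the mutant by 0.65 ± 0.10 after H2O2 and 0.36 ± 0.10 untreated. The part of rbk1 in the rpn12 values was not tested. Under quantile normalization 1 lid gene was higher after H2O2 and 2 without it. Without H2O2, 4 lid genes were higher in the mutant (rpn7, rpn11, rpn12 and rpn502), where 22.8% of all genes were higher. Of these calls, that of rpn7 held under every alternative.

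Rpn5, a structural subunit of the lid, is encoded by rpn501 and rpn502, which share 95.5% and 95.7% of their 31-base stretches, so that the split of reads between them is uncertain. Their summed normalized counts were 18621 and 18854 in treated mutant cells, 17472 and 16204 in treated wild type, 10413 and 10342 in untreated mutant cells, and 9645 and 9046 in untreated wild type. As counted, rpn501 rose by 0.83 ± 0.07 in the mutant and 0.75 ± 0.07 in wild type, and rpn502 by 0.87 ± 0.07 in the mutant and 0.92 ± 0.07 in wild type. The ratio of rpn502 to rpn501 lay between 1.63 and 1.72 in the treated groups and the untreated mutant, and was 1.42 and 1.49 in untreated wild type.

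The 20S core was the class with the largest medians in the mutant. Its 11 genes rose with H2O2 in both strains, by 0.90 (pre10, alpha 7) to 1.26 (pre9, alpha 3) in the mutant and by 0.56 (pre5, alpha 6) to 1.26 (pre3, beta 1) in wild type. Over all genes, 35.7% rose in the mutant and 37.7% in wild type. In the mutant against wild type 10 of the 11 core genes were higher in each condition, and 10 after H2O2 and 9 untreated stayed so under every alternative. Over all genes, 26.5% were higher after H2O2 and 22.8% untreated. The summed core transcripts held 0.486% and 0.521% of the normalized counts in the treated mutant, 0.358% and 0.359% in treated wild type, 0.297% and 0.322% in untreated mutant cells, and 0.246% and 0.257% in untreated wild type. For the lid the shares were 0.429% and 0.431% in the treated mutant, 0.43% and 0.406% in treated wild type, 0.291% and 0.307% without treatment in the mutant, and 0.293% and 0.289% in untreated wild type. As shares, the strains overlapped for the lid in both conditions and did not for the core. The summed normalized counts of the lid did not overlap, at 63989 and 64258 in the treated mutant, 59750 and 57688 in treated wild type, 35059 and 36356 in untreated mutant cells, and 32096 and 32038 in untreated wild type.

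The gene of the core with the largest strain difference was pre5, which encodes the alpha 6 subunit. It had 6776.8 and 7143.0 normalized counts in the treated mutant, 3094.1 and 3530.5 in treated wild type, 3345.9 and 3176.2 in untreated mutant cells, and 2158.9 and 2322.8 in untreated wild type. Treated wild type reached about the level of the untreated mutant, and the treated mutant stood far above both. The mutant was higher by 1.07 ± 0.08 after H2O2 (limma, BH-adjusted p = 1.4e-05) and by 0.54 ± 0.08 untreated (limma, BH-adjusted p = 0.000905). Its responses, 1.09 ± 0.08 in the mutant and 0.56 ± 0.08 in wild type, differed by 0.53 ± 0.11 (limma, BH-adjusted p = 0.00918), which passed under 14 of 15 alternatives. Without the second treated mutant library the BH-adjusted p from limma was 0.0514.

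At the other end was pre1, the beta 4 subunit, with 4446.9 and 4937.7 normalized counts in the treated mutant, 3887.3 and 4514.5 in treated wild type, 2197.9 and 2377.3 in untreated mutant cells, and 1774.6 and 2045.7 in untreated wild type. The treated strains overlapped, and the strain difference was 0.16 ± 0.10 after H2O2 (limma, BH-adjusted p = 0.218) and 0.26 ± 0.10 untreated (limma, BH-adjusted p = 0.07). The catalytic beta 1 and beta 2 subunit genes, pre3 and pup1, were higher in the mutant after H2O2 by 0.41 ± 0.07 and 0.61 ± 0.08. The remaining core genes pre4, pre6, pre8, pre9, pre10, pup2 and pup3 were 0.49 to 0.68 higher after H2O2 and 0.33 to 0.46 higher untreated. For pre8, 45% of the exon bases lie opposite wss2, which rose by 2.19 ± 0.10 in the mutant and 3.02 ± 0.10 in wild type, and reads of such a pair cannot be told apart without the strand setting of the counting. Except for pre5, no difference of responses in the core passed, with values of -0.10 to 0.27.

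**Figure D3:**
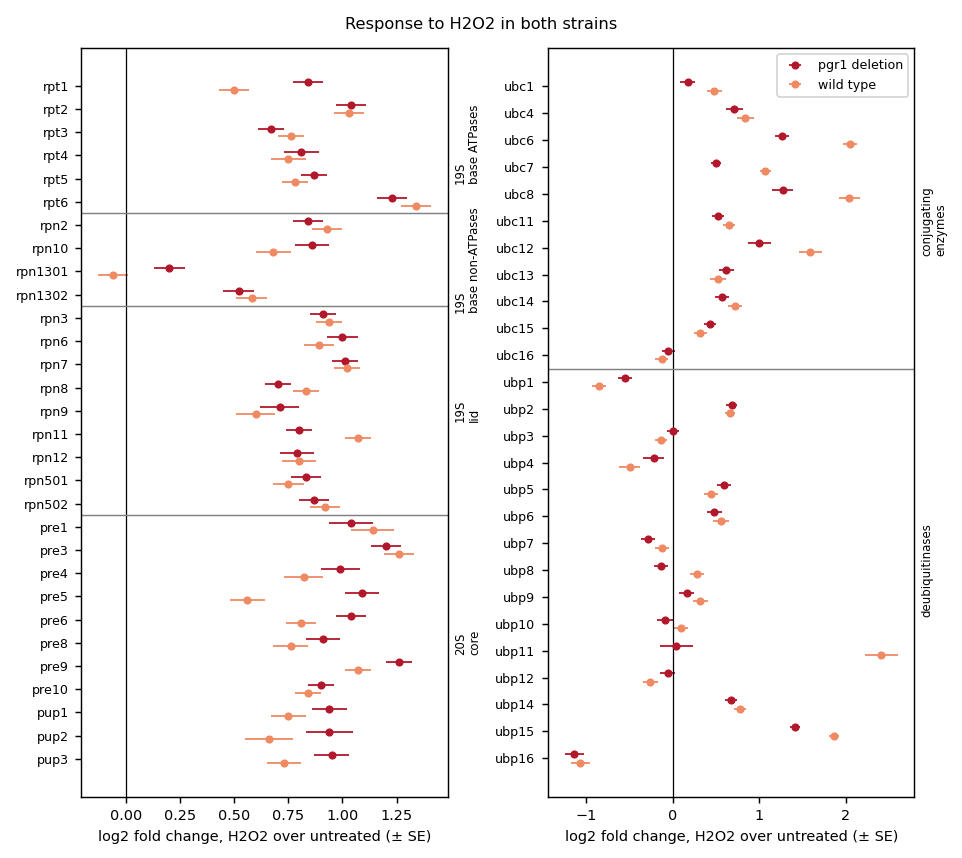
Points are log2 fold changes of H2O2 over untreated cells with SE (limma, n = 2 libraries per group) in the pgr1 deletion (dark red) and wild type (orange), by gene and class. Proteasome subunits lie right of 0 in both strains except rpn1301 in wild type, and the points of ubp11, ubc6, ubc8 and ubp15 are apart between the strains.

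The conjugating enzymes responded over a wider range than the proteasome. With H2O2, 35.7% of all genes rose and 32.5% fell in the mutant, and 37.7% rose and 34.6% fell in wild type. Of the 11 conjugating enzymes 9 rose in the mutant and 10 in wild type with it, and none fell. All of these 11-gene class calls held under every alternative. The exception in both strains was ubc16, with 1054.9 and 1173.6 normalized counts in the treated mutant, 861.4 and 885.0 in treated wild type, 1192.9 and 1113.2 in untreated mutant cells, and 976.2 and 941.7 in untreated wild type. It was at -0.05 ± 0.08 in the mutant (limma, BH-adjusted p = 0.59) and -0.13 ± 0.08 in wild type (limma, BH-adjusted p = 0.153). In the mutant against wild type it was the highest of its class after H2O2, at 0.35 ± 0.08, a call lost without the second treated mutant library. However, 90.6% of its exons lie opposite slm5 and reb1, so this count is uncertain.

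Ubc6 and Ubc7 are the conjugating enzymes of the pathway that clears misfolded proteins from the endoplasmic reticulum. The ubc6 transcript had 3027.8 and 3052.8 normalized counts in the treated mutant, 3823.7 and 3891.9 in treated wild type, 1260.3 and 1280.0 in untreated mutant cells, and 1013.8 and 854.2 in untreated wild type. The strains changed places: relative to wild type the mutant was at -0.34 ± 0.08 after H2O2 (limma, BH-adjusted p = 0.00834) and at 0.45 ± 0.08 without it (limma, BH-adjusted p = 0.00288). Without the first treated mutant library the BH-adjusted p from limma after H2O2 was 0.0525. The response was 1.26 ± 0.08 in the mutant and 2.05 ± 0.08 in wild type, with a difference of -0.79 ± 0.12 (limma, BH-adjusted p = 0.00156). All of the ubc6 exons lie opposite ats1 in the reference, so the ubc6 count is uncertain. With H2O2 ats1 was at 0.19 ± 0.08 in the mutant and -0.01 ± 0.08 in wild type, neither of which passed. In the mutant against wild type ats1 was higher by 0.68 ± 0.08 after H2O2 (limma, BH-adjusted p = 0.000266) and by 0.48 ± 0.08 untreated (limma, BH-adjusted p = 0.0024), and its part in the ubc6 values was not tested. For ubc7 the normalized counts were 1574.4 and 1637.0 in treated mutant cells, 2062.7 and 2140.9 in treated wild type, 1121.9 and 1145.9 in untreated mutant cells, and 993.7 and 1004.6 in untreated wild type. Relative to wild type it was at -0.39 ± 0.06 in the mutant after H2O2 (limma, BH-adjusted p = 0.00114) and at 0.18 ± 0.06 without it (limma, BH-adjusted p = 0.0491). The value after H2O2 passed under all 16 alternatives, and the value without H2O2 under 5 of 16. Its responses differed by -0.57 ± 0.09 (limma, BH-adjusted p = 0.00213).

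In budding yeast Ubc8 acts in the destruction of gluconeogenic enzymes. Here ubc8 had 1713.7 and 1693.9 normalized counts in the treated mutant, 1904.3 and 2173.5 in treated wild type, 700.3 and 715.9 in untreated mutant cells, and 562.1 and 435.8 in untreated wild type. It rose by 1.27 ± 0.12 in the mutant and 2.04 ± 0.12 in wild type, with a difference of -0.77 ± 0.17 (limma, BH-adjusted p = 0.00941). The treated strains did not overlap, but their difference of -0.26 ± 0.12 did not pass (limma, BH-adjusted p = 0.104). The gene gfh1, opposite 13.8% of the ubc8 exons, rose by 0.37 ± 0.06 in wild type and was at -0.06 ± 0.06 in the mutant, with a difference of -0.43 ± 0.09 that passed (limma, BH-adjusted p = 0.00744); its part in the ubc8 result was not tested. The NEDD8 conjugating enzyme gene ubc12 had 457.2 and 433.2 normalized counts in the treated mutant, 493.7 and 509.9 in treated wild type, 215.7 and 228.0 in untreated mutant cells, and 189.1 and 144.9 in untreated wild type. It rose by 1.00 ± 0.13 in the mutant and 1.59 ± 0.13 in wild type, and the difference of -0.59 ± 0.19 (limma, BH-adjusted p = 0.0459) held under 6 of 15 alternatives. It was lost without every library other than the first of untreated wild type, under quantile normalization and with DESeq2.

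The differences of ubc6, whose count is uncertain, ubc7 and ubc8 passed under all 15 alternatives run. Besides these and ubc12, the conjugating enzymes had differences of -0.30 (ubc1) to 0.11 (ubc15), none of which passed. The most abundant of the class was ubc4, a general conjugating enzyme, with 22971.8 and 24247.5 normalized counts in the treated mutant, 20636.7 and 21480.2 in treated wild type, 13436.7 and 15409.0 in untreated mutant cells, and 10852.4 and 12724.4 in untreated wild type. It rose by 0.71 ± 0.10 in the mutant and 0.84 ± 0.10 in wild type, and its strain differences of 0.16 ± 0.10 after H2O2 and 0.29 ± 0.10 untreated did not pass. Ubc11, the partner of the anaphase-promoting complex, Ubc13, which builds chains in DNA damage tolerance, ubc14 and ubc15 rose by 0.43 to 0.62 in the mutant and 0.32 to 0.72 in wild type. Of ubc14, 35.2% of the 31-base stretches also occur in sfc7, so its count is uncertain. The count of ubc1 is uncertain as well, because 62.6% of its exons lie opposite klp9, which rose in both strains; ubc1 was at 0.17 ± 0.09 in the mutant, where it did not pass, and rose by 0.48 ± 0.09 in wild type.

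After H2O2, 3 of the 11 conjugating enzyme genes were higher in the mutant (ubc13, ubc15 and ubc16) and 2 lower (ubc6 and ubc7), with a class median of 0.02, where 26.5% of all genes were higher and 22.4% lower, so the counts lie near those of all genes. Under quantile normalization 1 was higher and 2 lower, and 1 of the 5 calls held under every alternative. Without H2O2, 6 of the 11 were higher in the mutant and none lower, from 0.18 for ubc7 to 0.52 for ubc8 among those that passed, where 22.8% of all genes were higher. Of these 6 calls 2 held under every alternative.

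The deubiquitinases did not move as a class. With H2O2 5 of the 15 rose and 3 fell in the mutant, where 35.7% of all genes rose and 32.5% fell. In wild type 8 rose and 4 fell, where 37.7% of all genes rose and 34.6% fell. The share of the class that rose was near that of all genes in the mutant and above it in wild type, and the share that fell was below it in both. The medians were -0.00 in the mutant and 0.28 in wild type. The risers of both strains were ubp2, ubp5, ubp6, ubp14 and ubp15, and ubp1 and ubp16 fell in both. Under quantile normalization 5 of the 15 rose and 5 fell in the mutant, and 8 rose and 6 fell in wild type. Ubp6 is a deubiquitinase that binds the proteasome and Ubp14 takes apart free ubiquitin chains. With H2O2 ubp6 rose by 0.48 ± 0.09 in the mutant and 0.56 ± 0.09 in wild type, and ubp14 by 0.67 ± 0.07 in the mutant and 0.78 ± 0.07 in wild type. Of the ubp6 exon bases 20.2% lie opposite rpl2401, which was at -0.26 ± 0.10 in the mutant and -0.18 ± 0.10 in wild type. The part of rpl2401 in the ubp6 values was not tested.

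A relative of human USP7, ubp15, had the largest response of the class in the mutant. It had 12809.1 and 12880.2 normalized counts in the treated mutant, 12311.7 and 12371.0 in treated wild type, 4811.2 and 4841.0 in untreated mutant cells, and 3375.8 and 3401.3 in untreated wild type. The treated strains were close, and the untreated mutant was 0.51 ± 0.06 above untreated wild type (limma, BH-adjusted p = 0.000222). The responses of 1.41 ± 0.06 in the mutant and 1.86 ± 0.06 in wild type differed by -0.45 ± 0.08 (limma, BH-adjusted p = 0.0049), under all 15 alternatives. The gene that fell most was ubp16, with 286.0 and 271.3 normalized counts in the treated mutant, 353.8 and 331.9 in treated wild type, 597.8 and 632.1 in untreated mutant cells, and 657.5 and 794.9 in untreated wild type. It fell by 1.14 on the log2 scale in the mutant (SE 0.11) and by 1.07 in wild type (SE 0.11), and its difference of -0.06 ± 0.15 did not pass. The next, ubp1, was at -0.55 ± 0.08 in the mutant and -0.85 ± 0.08 in wild type, and its difference of 0.30 ± 0.11 did not pass (limma, BH-adjusted p = 0.0739).

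The gene whose response differed most between the strains, among all 56, was ubp11. It had 215.1 and 182.0 normalized counts in the treated mutant, 1225.6 and 1072.5 in treated wild type, 203.2 and 181.9 in untreated mutant cells, and 262.6 and 175.0 in untreated wild type. Treated wild type stood far above the other 3 groups, which overlapped. With H2O2 it was at 0.04 ± 0.19 in the mutant (limma, BH-adjusted p = 0.854) and rose by 2.41 ± 0.19 in wild type (limma, BH-adjusted p = 3.27e-06), and the difference was -2.37 ± 0.26 (limma, BH-adjusted p = 0.000367), under all 15 alternatives. After H2O2 the mutant was at -2.53 ± 0.19 relative to wild type (limma, BH-adjusted p = 1.22e-05), while without it the value was -0.16 ± 0.19 (limma, BH-adjusted p = 0.537). No exon of ubp11 lies opposite another gene of the table. Its neighbour on the opposite strand, pat1, a kinase gene that holds back meiosis, had 205.4 and 189.8 normalized counts in the treated mutant, 352.7 and 417.2 in treated wild type, 257.1 and 196.2 in untreated mutant cells, and 235.5 and 214.2 in untreated wild type. It was at -0.18 ± 0.15 in the mutant, rose by 0.77 ± 0.15 in wild type, and its difference of -0.95 ± 0.22 passed (limma, BH-adjusted p = 0.0119). The neighbour on the other side, rpc10, fell in both strains, at -0.70 ± 0.10 in the mutant and -0.99 ± 0.10 in wild type.

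**Figure D4:**
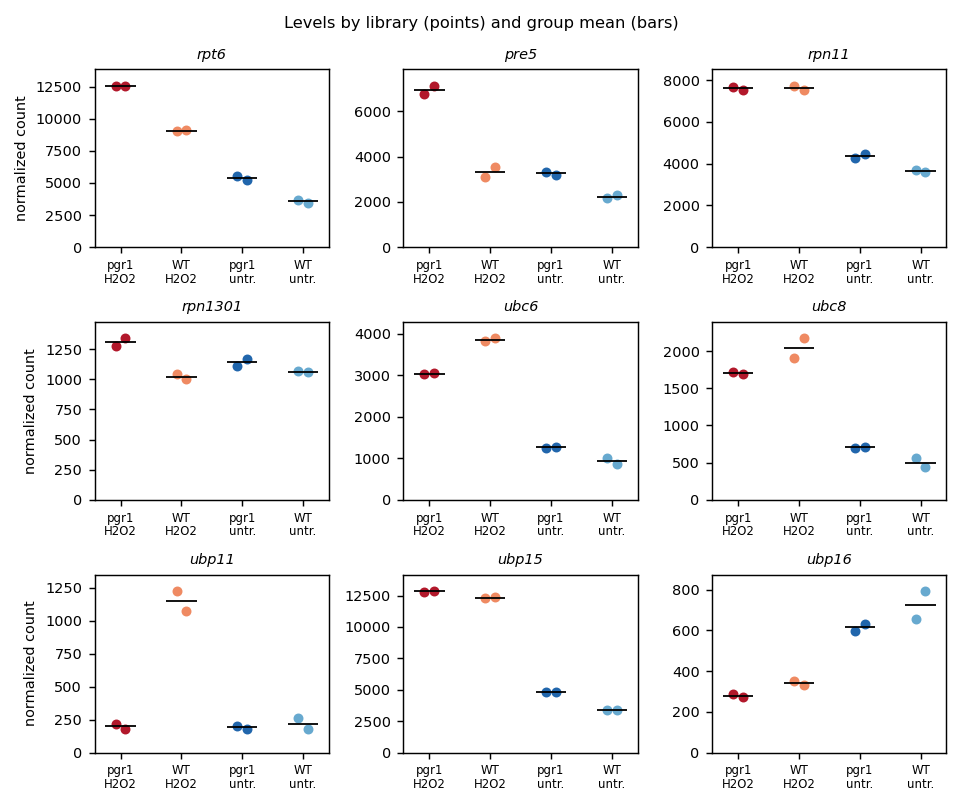
Points are the 2 libraries of each group and bars their mean, as normalized counts on a linear axis, for 9 genes. The treated mutant is highest for rpt6 and pre5, treated wild type for ubc6, ubc8 and ubp11, and both treated groups lie below both untreated groups for ubp16.

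Of the remaining deubiquitinases, ubp8, the enzyme of the SAGA complex that takes ubiquitin off histone H2B, had 608.7 and 620.8 normalized counts in the treated mutant, 666.0 and 659.5 in treated wild type, 666.1 and 693.2 in untreated mutant cells, and 577.8 and 517.8 in untreated wild type. It was at -0.14 ± 0.08 in the mutant and rose by 0.28 ± 0.08 in wild type. That rise was lost without the second untreated wild-type library and in the fit of the compared groups alone. The difference of -0.42 ± 0.12 (limma, BH-adjusted p = 0.0291) passed under 7 of 15 alternatives. It was lost with DESeq2 and without any library other than the first of untreated wild type. Of the ubp8 exon bases 27.8% lie opposite mcp7, whose difference of -0.46 ± 0.39 did not pass (limma, BH-adjusted p = 0.442). The part of mcp7 in the ubp8 values was not tested. In the mutant against wild type ubp5 was the highest of the class after H2O2, at 0.66 ± 0.08 (limma, BH-adjusted p = 0.00018), and it was 0.50 ± 0.08 higher untreated. Its normalized counts were 2554.7 and 2620.7 in treated mutant cells, 1607.2 and 1679.4 in treated wild type, 1757.5 and 1674.9 in untreated mutant cells, and 1294.0 and 1140.4 in untreated wild type. The gene ubp9 was higher in the mutant in both conditions too, by 0.29 ± 0.09 after H2O2 and by 0.45 ± 0.09 untreated. Its call after H2O2 was lost without either treated mutant library or the first treated wild-type library, and under quantile normalization. Of the 15 deubiquitinases 2 were higher and 4 lower in the mutant after H2O2, where 26.5% of all genes were higher and 22.4% lower. Without H2O2, 4 were higher and 2 lower, where 22.8% of all genes were higher and 15.8% lower. The counts of lower genes lie near the shares of all genes. Lower in the mutant after H2O2 were ubp7, ubp10, ubp11 and ubp16, and lower untreated were ubp1 and ubp3, the last at -0.25 ± 0.07 (limma, BH-adjusted p = 0.0156). Of these 6, the ubp11 call held under every alternative. In ubp4 86.1% of the exons lie opposite wbp4 and SPBC18H10.09, so its fall of -0.50 ± 0.12 in wild type is uncertain. In wild type ubp12, which acts with the COP9 signalosome, fell by 0.26 on the log2 scale (SE 0.09), and this call was lost without the second treated or the first untreated wild-type library.

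Levels per length of transcript had their highest class median in the core in the treated mutant, in the base ATPases in treated wild type and the untreated mutant, and in the lid in untreated wild type. In normalized counts per kb of exon, the class medians in the treated mutant were 5725 for the core, 5296 for the base ATPases, 4754 for the lid, 2782 for the other base subunits, 1798 for the conjugating enzymes and 509 for the deubiquitinases. In treated wild type they were 3756 for the core, 4503 for the base ATPases and 4359 for the lid, and in the untreated mutant 2881 for the core, 3161 for the base ATPases and 2668 for the lid. In untreated wild type they were 2122 for the core, 2497 for the base ATPases, 2600 for the lid, 1433 for the other base subunits, 901 for the conjugating enzymes and 435 for the deubiquitinases. The spread was widest among the conjugating enzymes, where ubc4 reached 40918 per kb in the treated mutant against 20431 in untreated wild type, and ubc1 was lowest, at 227 in the treated mutant and 169 in untreated wild type. Among 19S subunits rpn1301 was lowest in each group, at 854 in treated mutant cells, 667 in treated wild type, 744 in untreated mutant cells and 694 in untreated wild type. The lowest deubiquitinase was ubp11 in every group but treated wild type, where it was ubp16 at 147 per kb.

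**Figure D5:**
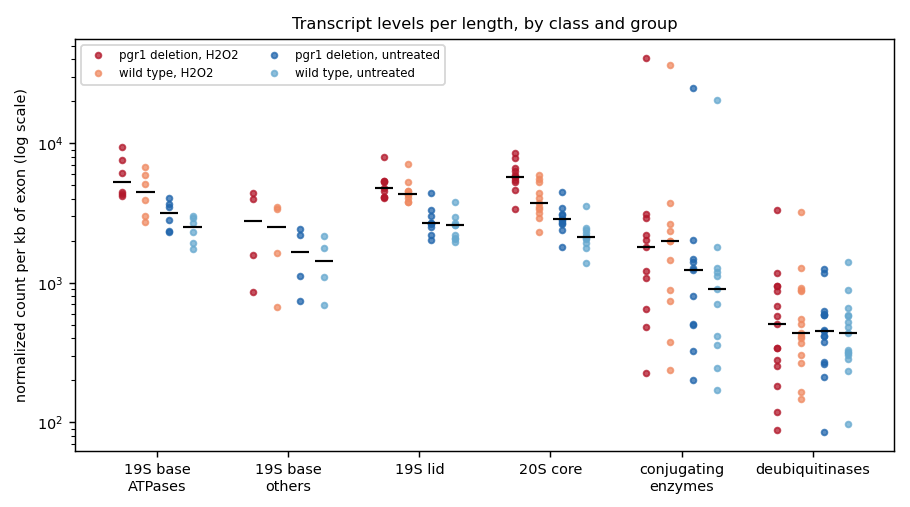
Points are genes, as the group's mean normalized count per kb of exon on a log axis, by class; bars are class medians. The core median is 5725 in treated mutant cells against 2122 in untreated wild type, deubiquitinases lie lowest, and ubc4 stands above all other genes.

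Around these genes, the ubiquitin pathway was described with listed genes that carry other names. Of the 5 ubiquitin genes 1, the polyubiquitin gene ubi4, passed with H2O2. It had 59632.8 and 69112.3 normalized counts in the treated mutant, 40572.8 and 46585.7 in treated wild type, 17476.6 and 21321.3 in untreated mutant cells, and 7537.9 and 6938.3 in untreated wild type, with no overlap between groups. It rose by 1.73 ± 0.13 in the mutant and 2.59 ± 0.13 in wild type, with a difference of -0.85 ± 0.18 (limma, BH-adjusted p = 0.00907), and was higher in the mutant by 0.56 ± 0.13 after H2O2, a call lost under quantile normalization, and by 1.42 ± 0.13 untreated. The ubiquitin fusion genes ubi1, ubi2, ubi3 and ubi5 lay between -0.14 and 0.12 in the mutant and -0.26 and 0.09 in wild type with H2O2 and did not pass, though under quantile normalization 4 ubiquitin genes were lower in wild type and 2 in the mutant. The ubiquitin activating enzyme gene uba1 rose by 1.53 ± 0.07 in the mutant and 1.46 ± 0.07 in wild type.

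Proteasome genes outside the naming rule rose as well: all 11 tested rose in the mutant and 10 in wild type, and none fell. Over all genes, 35.7% rose and 32.5% fell in the mutant, and 37.7% rose and 34.6% fell in wild type. The core subunit genes scl1, pts1 and pam1 rose by 0.89, 0.68 and 0.78 in the mutant and by 0.69, 0.68 and 0.70 in wild type, and mts4, the Rpn1 scaffold of the base, by 0.63 in the mutant and 0.60 in wild type. The highest in both strains was fub1, a proteasome inhibitor of the PI31 family, at 1.14 ± 0.08 in the mutant and 2.10 ± 0.08 in wild type, with a difference of -0.96 ± 0.12 (limma, BH-adjusted p = 0.000567). Under quantile normalization 8 of the 11 were higher in the mutant, and 7 were higher and 1 lower in wild type. Of the 12 genes for Cdc48, the segregase that pulls ubiquitylated proteins out of complexes, and for ubiquitin receptors, 11 rose in the mutant and 10 in wild type, from 0.34 (vms1) to 1.52 (ubx4) in the mutant and from 0.49 (lub1) to 1.66 (ubx3) in wild type. Under quantile normalization 9 of the 12 were higher in the mutant, and 10 were higher and 1 lower in wild type. Their median went from 0.91 to 0.55 in the mutant and from 1.06 to 0.74 in wild type. The gene cdc48 itself rose by 0.71 ± 0.08 in the mutant and 1.26 ± 0.08 in wild type, with a difference of -0.55 ± 0.12 (limma, BH-adjusted p = 0.00974).

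Ligase genes and the remaining lists are given beside the all-gene shares, 35.7% rising and 32.5% falling in the mutant and 37.7% rising and 34.6% falling in wild type. Of 23 ubiquitin ligases with other names 12 rose and 1 fell in the mutant, and 11 rose and 2 fell in wild type. Under quantile normalization 8 rose and 2 fell in the mutant, and 8 rose and 5 fell in wild type. The highest were hul5 in the mutant (1.03 ± 0.07) and san1, a ligase for misfolded nuclear proteins, in wild type (1.40 ± 0.10). Of 21 cullin ligase and NEDD8 genes 9 rose and 7 fell in the mutant, and 10 rose and 7 fell in wild type, near the shares of all genes in the mutant. The highest of them was cdt2, at 1.76 in the mutant and 1.51 in wild type. The lowest was pop2, at -0.80 in the mutant and -0.87 in wild type. The F-box gene pof1 went opposite ways, at -0.66 ± 0.14 in the mutant and 0.75 ± 0.14 in wild type, with a difference of -1.41 ± 0.20 (limma, BH-adjusted p = 0.00115). The anaphase-promoting complex, a ligase of mitosis, had 12 of 16 genes lower in the mutant, and 10 lower and 1 higher in wild type, with its activator gene slp1 lowest at -2.98 ± 0.13 in the mutant and -3.45 ± 0.13 in wild type. Under quantile normalization 7 of the 16 were lower in the mutant and 8 in wild type. Of 11 SUMO pathway genes 2 rose and 2 fell in the mutant, and 1 rose and 5 fell in wild type. Of 10 genes with other names listed for proteases of ubiquitin, SUMO (ulp1 and ulp2) and NEDD8 (nep1, nep2 and csn5), 7 rose in each strain. The highest was nep1 in the mutant, at 1.23, and otu1 in wild type (1.06 ± 0.08 in the mutant and 1.65 ± 0.08 in wild type). In the mutant 1 fell, ulp1 at -0.32, and in wild type 2 fell, the lowest being ulp1 at -0.87. Both ulp1 and ulp2 are also counted among the SUMO pathway genes. Of 5 conjugating enzymes with other names 5 rose in the mutant and 3 in wild type, and of 6 activating enzyme genes 3 rose in each.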

How the data were processed

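Poly(A) RNA was extracted with hot phenol and prepared with a TruSeq stranded mRNA kit, as the labels' protocols say. The submitters' processing notes name FastQC, Trimmomatic, Salmon, DESeq2 and build ASM294v2; the strand setting is not given in the sources used here. Per the name of the deposited table, its values are a signal, gene counts scaled by the authors with a DESeq2 size factor for each library. In each library they were whole multiples of 1 read's worth, within 0.05 reads, for 99.98% to 100.00% of genes. From them log2(value + 1) was computed, which understates changes of genes with few reads. The test covered genes at 10 or more in 2 or more libraries (5028 of 5165, 137 left out, as was 1 line naming no gene) and used R 4.3.3 and limma 3.58.1, where the prior variance followed a trend, 1 mean per group and 4 residual degrees of freedom. Tests were two-sided, called at a BH-adjusted p below 0.05, and tested on simulated data. The labels do not say whether replicates were separate cultures, so p-values measure only the spread between them, which may be technical.

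Alternatives were quantile normalization, a pseudocount of 10, no filter, no variance trend, a replicate block, a fit of the compared groups alone, leaving out each library, and edgeR 4.0.16 and DESeq2 1.42.0 on the recovered reads. The members and lists were chosen with earlier results of these data known, and 13 of 195 list entries were left out after their annotation was seen. Every member may be named. Full statistics go to the highest and lowest of each class per comparison and values by library to those named so in 2 or more. From the lists, the highest and lowest called genes were to be named, and only some of them are given. Some genes were added after their values were seen (ubc4, ubc7, ubc12, ubp5, ubp8 and neighbours). Names, exon lengths, stretches shared between genes and opposite-strand overlap came from RefSeq ASM294v3 (5129 identifiers matched, 36 did not), a build other than that of the table, and coordinates are left out.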

Additional observations from a re-analysis of the deposited data

Results flagged for a closer look

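The H2O2 responses of 10 genes differed between the strains by the test of the difference itself (limma, contrast of the mutant's log2 response minus that of wild type). They were larger in the mutant for pre5 (0.53) and rpt1 (0.34). They were smaller in the mutant for ubp11 (-2.37), ubc6 (-0.79), ubc8 (-0.77), ubc12 (-0.59), ubc7 (-0.57), ubp15 (-0.45), ubp8 (-0.42) and rpn11 (-0.27). Those of ubp11, ubc6, ubc7, ubc8 and ubp15 passed under all 15 alternatives run. The count of ubc6 is uncertain, since all of its exons lie opposite ats1. Of all genes tested, 12.0% had a larger and 15.3% a smaller response in the mutant. The counts of the members lie near that share for smaller responses and below it for larger ones.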

How the results depend on the processing

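No call of any of the 56 genes turned to the other direction under any alternative run. Of the calls, 45 of 47 for H2O2 in the mutant, 45 of 51 for H2O2 in wild type, 19 of 32 for the mutant after H2O2, 20 of 32 for the untreated mutant and 5 of 10 for the difference of responses held under every alternative. Counts of higher genes stayed within 1.5 times of those reported, except for the difference of responses, which had 2 as reported, 1 under quantile normalization and 0 to 2 without each library in turn. Counts of lower genes moved more. For H2O2 in the mutant 3 became 5 under quantile normalization. For the untreated mutant 2 became 1 without the filter, without the variance trend, in the fit of the compared groups alone and with DESeq2, and 0 to 2 without each library. For the mutant after H2O2 6 became 3 with DESeq2 and 2 to 5 without each library. For the difference 8 became 5 with DESeq2 and 5 to 7 without each library. The cause was not tested. Quantile normalization moved 15 of 30 class medians by more than their spread. It shifted the median of all genes by -0.08 to 0.05. The labels do not say that a replicate number marks a shared culture or day, and correlations of same-numbered deviations between groups were -0.14 to 0.37, so a pairing was not established. The fit with the replicate block lost 0 calls and gained 6 for the untreated mutant, 2 for the mutant after H2O2 and 1 for the difference.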
